A study of Mus musculus with 346 samples.

Results

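The ErbB family comprises 4 receptor genes, Egfr, Erbb2, Erbb3 and Erbb4, and 6 of its ligand genes were examined beside them: Nrg1, Areg, Hbegf, Tgfa, Btc and Ereg. They were chosen by name, and all 10 were found among the 25142 genes analysed, of 27179 in the tables. Their reads were followed in single cells of the mouse mammary gland at 3 stages: 2 weeks of age (pre-puberty), 4.7 to 4.9 weeks (puberty) and 10 weeks (adult). All cells came from FVB/NJ females with no engineered allele or treatment named, had been depleted of blood and endothelial cells and sorted as total epithelium, and were captured one per chamber on a Fluidigm C1 device, so that no barcode is shared between cells. Of 144, 136 and 66 cells, 116, 119 and 44 had at least 100000 reads and 1500 genes and were kept. The series names 8 mice per stage without saying which cell came from which mouse, so each stage is 1 sample. No test between stages or classes is possible, and every interval given here is a 95% interval for counting error only, which covers neither mice nor captures and takes reads as independent molecules.

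ErbB receptors are tyrosine kinases that signal as pairs. The EGFR ligands (amphiregulin, HB-EGF, TGF-alpha, betacellulin and epiregulin) are made as membrane proteins and released by metalloproteases, and betacellulin, HB-EGF and epiregulin also bind ErbB4. Neuregulin binds ErbB3 or ErbB4. ErbB2 has no ligand of its own and serves as the preferred partner of the others, while the kinase of ErbB3 is weak. In the mammary gland, amphiregulin made by hormone-sensing luminal cells is known as the signal by which oestrogen drives ductal growth at puberty through EGFR in the stroma, and neuregulin is known as a p63 target of basal cells that acts on luminal neighbours.

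The kept cells held 109387 to 1189105 reads, with a median of 296616 for pre-pubertal, 574894 for pubertal and 334741 for adult cells. For shares of cells, each cell was therefore thinned at random to 100000 reads. The label of the pre-pubertal cells as epithelium was poorly matched by Epcam and by luminal markers. Epcam, the general epithelial adhesion molecule, had a read in 14.7% of thinned pre-pubertal cells, but in 95.0% of pubertal and 95.5% of adult ones. Every one of the 116 pre-pubertal cells held reads of at least 8 of 20 Schwann cell markers, with a median of 16, against a median of 2 at each later stage. The summed level of that list ran from 700.4 to 96989 counts per 1000000 reads (CPM) in pre-pubertal cells (median 27160), from 0 to 142782 at puberty (median 141) and from 0 to 4911 in the adult (median 460.5). The 10 luminal markers had a median of 0 detected genes per pre-pubertal cell, 8 at puberty and 6 in the adult. Epcam and the Schwann, luminal and fibroblast markers move with every contrast between pre-puberty and a later stage given here. The part of any of these markers in those contrasts was not tested.

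The leading ligand changed between pre-puberty and puberty. At pre-puberty Hbegf was the leading member, whereas Areg was not read at all. At puberty Areg and Nrg1 led, and in the adult Areg again led, ahead of Nrg1 and Hbegf. To compare genes with each other, levels were set per kilobase of transcript (RPKM, from reads summed over all kept cells). At puberty Areg stood at 597 RPKM, Nrg1 at 304 and Hbegf at 45.7, followed by Btc at 21.8, Erbb2 at 20.2, Egfr at 9.11, Erbb3 at 5.06, Tgfa at 4.15, Ereg at 2.83 and Erbb4 at 0.106. No neighbours in that order had overlapping counting intervals. Those intervals take reads as independent, although 1 cell held 69.2% of the Ereg reads and 1 cell 37.9% of the Egfr reads. At pre-puberty the order was Hbegf at 119 RPKM, Nrg1 at 15.3, Erbb2 at 11.0, Erbb3 at 4.38, Egfr at 2.01, Btc at 1.28 and Tgfa at 0.267, and the intervals of Ereg, Erbb4 and Areg at the bottom overlapped. In the adult Areg was at 457 RPKM, Nrg1 at 89.0, Hbegf at 72.3 and Btc at 2.77. Egfr at 6.88, with 96.1% of its reads in 1 cell, and Tgfa at 6.59 had overlapping intervals there. So did Erbb2 at 1.09, Erbb3 at 1.05 and Erbb4 at 1.03.

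**Figure D1:**
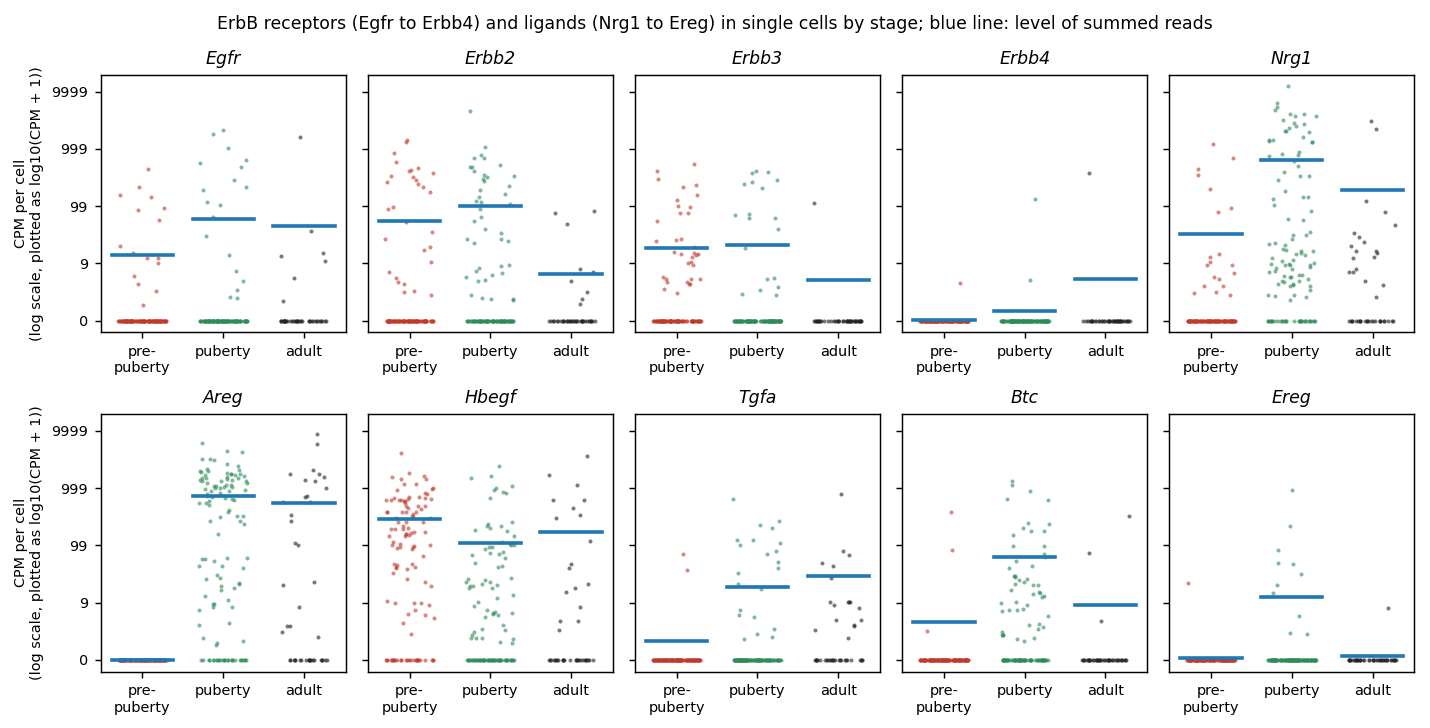
Level of each receptor and ligand in every kept cell (points, CPM on a log scale that starts at 0) at the 3 stages, with the level of the summed reads as a blue line. Areg is at 0 in all 116 pre-pubertal cells and Hbegf is spread over most of them, while the adult Egfr line, at 44.3 CPM, is set by 1 cell.

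Egfr, the receptor of all the EGFR ligands, was read in few cells at every stage. Per cell the lowest level and the median were 0 at each stage, and the highest were 439 CPM (pre-puberty), 2133 (puberty) and 1627 (adult). A thinned read was held by 12 pre-pubertal (10.3%, interval 5.46 to 17.4), 13 pubertal (10.9%, 5.95 to 18.0) and 6 adult cells (13.6%, 5.17 to 27.4). The shares of cells thus overlapped widely, although the summed levels were 12.9 CPM (11.9 to 14.1), 58.6 (56.8 to 60.5) and 44.3 (41.3 to 47.4). A single cell carried 96.1% of the adult reads, and the others together stood at 1.76 CPM. At puberty 1 cell carried 37.9%, and 36.8 CPM remained without it, while the pre-pubertal level without its top cell was 8.60 CPM. The log2 ratio of pre-puberty over adult, taken after adding 5 CPM to each level, was -1.46 with that cell and 1.01 when the top cell of each stage was left out. Egfros, which overlaps Egfr, was counted as a gene of its own. How reads on the bases they share were assigned in these unstranded libraries is not stated.

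Erbb2, the partner receptor, was the most widely read receptor at puberty and, by 1 cell, in the adult. It was found in 24 pre-pubertal (20.7%, 13.7 to 29.2), 37 pubertal (31.1%, 22.9 to 40.2) and 7 adult cells (15.9%, 6.64 to 30.1). Its highest cells were at 1402 CPM (pre-puberty), 4609 (puberty) and 82.4 (adult), and the lowest and the median were again 0. Summed levels, by age, were 54.9 CPM (52.7 to 57.3), 101 CPM (98.7 to 103) and 5.45 CPM (4.45 to 6.62). The log2 ratio was 2.52 for pre-puberty over adult and 3.34 for puberty over adult, and both stayed past 2-fold under every alternative tried. Leaving out the top cell of each stage left 45.2, 71.7 and 2.82 CPM. Mien1, which overlaps Erbb2, was also counted as a gene of its own, and how reads on the shared bases were assigned is not stated.

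Erbb3, the neuregulin receptor, was read in 30 pre-pubertal (25.9%, 18.2 to 34.8), 16 pubertal (13.4%, 7.89 to 20.9) and 1 adult cell (2.27%, 0.0575 to 12.0). Its summed level was nevertheless close at the first stages, with 17.6 CPM (16.3 to 19.0) and 20.3 CPM (19.3 to 21.4), since the pre-pubertal cells with a read held less each. Among cells with any read before thinning the median was 14.0 CPM for pre-pubertal and 61.8 CPM for pubertal cells. The adult level was 4.22 CPM, all of it from 1 cell. Of the 30 pre-pubertal cells, 28 were below the keratin threshold described later, as were 97 of all 116 (83.6%). Schwann markers were read above and below that threshold, with medians of 14 to 16 detected genes per cell in each keratin group of this stage. Their summed level was higher below it, with a median of 28565 CPM per cell. Above it the medians were 16705.5 CPM with Krt14 alone, 11985 CPM with Krt8 or Krt18 alone and 21111 CPM with both. Schwann cells are known to rely on ErbB3, and how far such cells account for the Erbb3 reads was not tested.

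Erbb4, the other neuregulin receptor, was close to undetected. It had 1 read at pre-puberty, 31 at puberty, 30 of them in 1 cell, and 82 in the adult, all in 1 cell. After thinning 1 cell held a read at each stage, and no direction was read from its levels of 0.0246, 0.453 and 4.38 CPM.

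Nrg1, neuregulin 1, stood high at puberty. Pubertal cells ran from 0 to 12356 CPM with a median of 8.64, while the medians before and after were 0 and the highest cells there 1212 CPM (pre-puberty) and 3080 CPM (adult). It was read in 13 pre-pubertal (11.2%, 6.10 to 18.4), 67 pubertal (56.3%, 46.9 to 65.4) and 13 adult cells (29.5%, 16.8 to 45.2). The pubertal share does not overlap with either of the others in its counting interval. The summed level was 32.1 CPM (30.4 to 33.9), 640 (634 to 646) and 187 (181 to 194). The pre-puberty over puberty log2 ratio was -4.12 and that of puberty over adult 1.75, both past 2-fold under every alternative. Without its top cell in each stage Nrg1 stood at 20.2, 554 and 97.6 CPM. Gm3985 and Gm8179, which overlap Nrg1, were counted as genes of their own.

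Areg, amphiregulin, was absent from the reads of pre-pubertal cells. None of 40710101 reads in 116 cells fell on it, and 0 of 116 cells allows a share of up to 2.59% if 3 cells are taken as the limit, or 3.13% by the exact interval. At puberty it was read in 85 of 119 cells (71.4%, 62.4 to 79.3), and in the adult in 22 of 44 (50.0%, 34.6 to 65.4). Pubertal cells ranged from 0 to 6073 CPM with a median of 310, and adult cells from 0 to 8925 with a median of 2.45. The summed levels were 716 CPM (709 to 722) and 547 CPM (537 to 558). Set against the floor of 3 reads over the pre-pubertal group, 0.0737 CPM, the pubertal level of Areg was 9714-fold higher and the adult one 7428-fold higher. These folds describe the summed reads of the 116 cells only, since they take reads as independent. They set no limit for cells not captured, of which the exact interval still allows 3.13% to hold Areg. Puberty and adult differed by a log2 ratio of 0.38, under the 2-fold mark. Among the 28 pre-pubertal cells below the coverage filter, 1 held a single Areg read, or 1.88 CPM (0.0476 to 10.5) over those cells.

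Areg lies on chromosome 5 in a run of EGFR ligand genes, Epgn (epigen), Ereg, Areg and Btc, between Mthfd2l and Parm1. The 250 bases before the annotated starts of 3 of them are shown, since all 4 ligands of the run had a lower pre-pubertal than pubertal level. RefSeq promoter entries (GRCm38.p6, the build of the counts) were matched for 6 of the 10 members. The capitals mark an exact cyclic AMP response element, TGACGTCA, and TATAAA on either strand. The windows are chr5:91139349-91139598 for Areg (plus strand), chr5:91402995-91403244 for Btc (minus strand) and chr5:91027267-91027516 for Epgn (plus strand).
Areg: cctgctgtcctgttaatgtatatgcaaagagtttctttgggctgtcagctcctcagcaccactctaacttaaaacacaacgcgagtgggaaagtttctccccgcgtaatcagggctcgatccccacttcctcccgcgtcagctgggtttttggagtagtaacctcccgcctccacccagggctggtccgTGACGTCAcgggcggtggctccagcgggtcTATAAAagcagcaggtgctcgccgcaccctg
Btc: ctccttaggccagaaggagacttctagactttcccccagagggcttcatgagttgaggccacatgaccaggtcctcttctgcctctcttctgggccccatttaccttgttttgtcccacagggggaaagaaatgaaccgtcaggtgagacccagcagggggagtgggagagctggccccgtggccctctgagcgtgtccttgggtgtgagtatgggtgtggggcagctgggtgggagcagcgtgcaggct
Epgn: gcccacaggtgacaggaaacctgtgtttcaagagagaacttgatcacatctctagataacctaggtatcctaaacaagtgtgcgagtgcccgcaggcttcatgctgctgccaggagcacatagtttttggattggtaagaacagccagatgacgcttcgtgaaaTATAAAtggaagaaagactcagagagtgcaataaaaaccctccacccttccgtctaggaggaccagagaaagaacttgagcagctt
The Areg window held TGACGTCA at 61 to 54 bases before the start, which 1.55% of 32851 promoter windows of this length contain, and TATAAA at 31 to 26 bases before it, which 12.4% contain in either orientation. A GGGCGG match, also searched on both strands, at 52 to 47 bases before the start is common, being found in 32.7% of the windows. The Btc window held none of these letters, and Epgn held TATAAA alone, 86 to 81 bases before its start. TGANTCA, the AP-1 motif, was searched on both strands too and was in none of the 3 windows, against 6.75% of all. These matches describe the sequence only.

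Along this stretch, Epgn stood at 0.221, 120 and 5.72 CPM in order of age, Ereg at 0.0983, 11.7 and 0.160, and Btc at 3.68, 62.6 and 7.97. Without the top cell the pubertal levels were 72.8 CPM for Epgn and 3.64 CPM for Ereg. The flanking genes were picked for their position after the values of the ligands were known. Mthfd2l stood at 6.02, 12.4 and 9.68 CPM, and Parm1 at 2.80, 24.5 and 23.0 CPM. All 4 ligands and both flanking genes were thus at their highest at puberty, although the intervals of Parm1 at puberty and in adult cells overlapped. Of the 40 pubertal cells with a Btc read 36 also held Areg, as did 8 of 9 with Ereg and 15 of 16 with Epgn, where 85 of all 119 cells held Areg.

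Btc, betacellulin, was read in 2 pre-pubertal (1.72%, 0.209 to 6.09), 40 pubertal (33.6%, 25.2 to 42.8) and 2 adult cells (4.55%, 0.555 to 15.5). Its highest pubertal cell was at 1353 CPM. The log2 ratio of pre-puberty over puberty was -2.96 and that of puberty over adult 2.38. Both held without the top cells, at levels of 0.644, 48.5 and 2.83 CPM. Ereg, epiregulin, was read in 9 pubertal cells and in 1 cell at each other stage. Its ratio of -1.71 for pre-puberty over puberty rested on 1 cell with 69.2% of the pubertal reads and was -0.79 without the top cells.

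Hbegf, the heparin-binding ligand, went the other way. It was read in 83 pre-pubertal (71.6%, 62.4 to 79.5), 53 pubertal (44.5%, 35.4 to 53.9) and 15 adult cells (34.1%, 20.5 to 49.9). Pre-pubertal cells ranged from 0 to 4047 CPM with a median of 108, pubertal cells from 0 to 2452 with a median of 1.44, and adult cells from 0 to 3639 with a median of 0. The summed level was 283 CPM (278 to 288), 109 (106 to 111) and 172 (166 to 178). The log2 ratio of pre-puberty over puberty, 1.34, was past 2-fold under every alternative, and that over the adult was 0.71. No single cell held over 7.35% of the pre-pubertal reads. Among the first 37 pre-pubertal cells, of which 12 were kept, Hbegf stood at 117 CPM, and among the later 104 at 341 CPM. In the 19 pre-pubertal cells above the keratin threshold it was read in 13.

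Tgfa, transforming growth factor alpha, was read in 2 pre-pubertal (1.72%, 0.209 to 6.09), 18 pubertal (15.1%, 9.22 to 22.8) and 10 adult cells (22.7%, 11.5 to 37.8). The summed levels were 1.13, 17.6 and 27.9 CPM, and 0.274 and 11.5 CPM remained at the first and the second without their top cells. Pre-puberty was lower than puberty by a log2 ratio of -1.88, while the adult level was 7.03 CPM without the cell that held 75.4% of its reads, the same cell that carried Egfr.

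**Figure D2:**
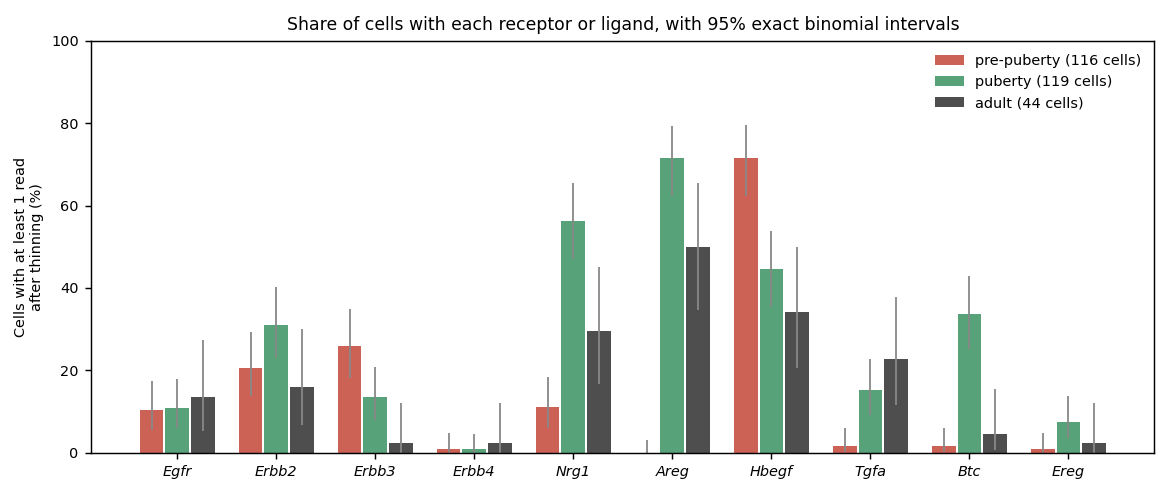
Share of thinned cells with at least 1 read of each receptor or ligand at the 3 stages, with exact binomial 95% intervals. Nrg1, Areg and Btc are highest at puberty, at 56.3%, 71.4% and 33.6% of cells, and Hbegf is highest at pre-puberty, at 71.6%.

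A ratio was called past 2-fold when its log2 value was above 1 or below -1 and the higher side had at least 10 CPM. Of the 9 members that reached 10 CPM, Hbegf was higher at pre-puberty than at puberty (of all 9868 such genes, 21.4% were higher) and 6 were lower, namely Egfr, Nrg1, Areg, Tgfa, Btc and Ereg (24% of all genes were lower). Erbb2, at -0.82, and Erbb3, at -0.16, were not past 2-fold. The median log2 ratio of these 9 was -1.83, against -0.12 over all genes tested. Against the adult, Erbb2 and Erbb3 were higher at pre-puberty (31.7% of 9749 genes) and Egfr, Nrg1, Areg and Tgfa lower (28.9%). For puberty over adult, Erbb2, Erbb3, Nrg1, Btc and Ereg were higher (28.4% of 9460 genes) and 0 of 9 members were lower (20.6%). The Ereg ratio there was 0.79, under the mark, without the cell with most of its reads in each stage. Each stage enters 2 of these 3 comparisons, so they are not independent of one another.

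Sender and receiver cells were described by keratin. Krt14 marks the basal layer and Krt8 and Krt18 the luminal layer, and a cell counted as positive above 40 RPKM. At puberty 5 cells were positive for Krt14 alone (the Krt14 class), 80 for Krt8 or Krt18 alone (the Krt8/18 class), 24 for both and 10 for neither. The adult had 5, 22, 14 and 3 cells in the same order, and pre-puberty 10, 2, 7 and 97. These classes are ranges of a level, not cell types. At puberty 4 cells lay between 20 and 80 RPKM of Krt14, and in the adult 5. Values of either Krt14 class rest on 5 cells, often on 1 of them.

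**Figure D3:**
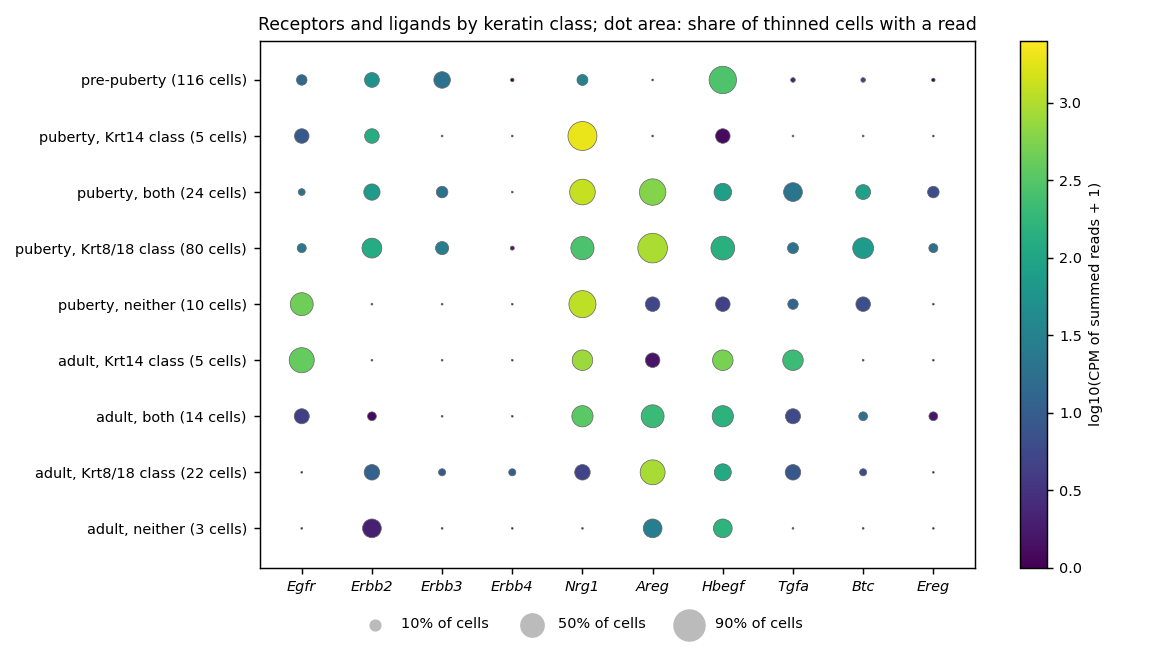
Level (colour, log10 of CPM + 1 from summed reads) and share of thinned cells with a read (dot area) of each member in the pre-pubertal cells and in the 4 keratin classes at puberty and in the adult. Areg is large in the Krt8/18 classes, at 83.8% and 59.1% of cells, and Nrg1 in the pubertal Krt14 class, at 80.0%. Egfr is at 50.0% in the pubertal cells with neither keratin and at 60.0% in the adult Krt14 class, 3 of 5 cells.

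At puberty Areg and Nrg1 were distributed in opposite ways over the keratin classes. Areg was at 917 CPM in the Krt8/18 class (908 to 926) and in 67 of its 80 cells, at 591 CPM in cells positive for both, and at 0.489 CPM in the Krt14 class, where 2 reads were found in all (0.0592 to 1.77 CPM). Its log2 ratio of the Krt14 class over the Krt8/18 class was -7.39. Nrg1 stood at 12356, 1452, 142, 17.0 and 11.3 CPM in the 5 cells of the Krt14 class. All of these were above the median of the Krt8/18 class, 4.92 CPM, and 2 were above 1000 CPM. The summed level was 1952 CPM in the Krt14 class (1909 to 1995), 1244 in cells positive for both, 1140 in cells with neither and 274 in the Krt8/18 class (270 to 279), a log2 ratio of 2.81. Without the top cell the Krt14 class was at 514 CPM. Reads of Nrg1 were found in 41 of 80 thinned cells of the Krt8/18 class (51.2%), but 5 or more reads in 20.0% of them, against 60.0% of the Krt14 class.

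**Figure D4:**
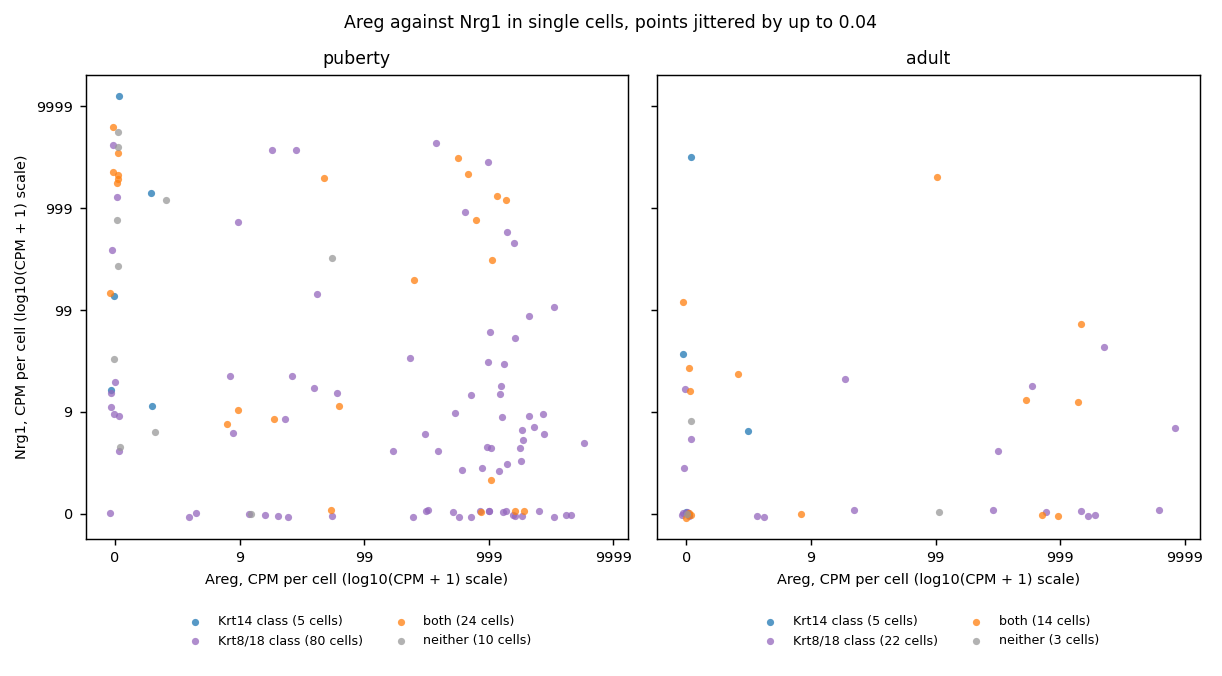
Areg against Nrg1 in each kept cell at puberty and in the adult (CPM on log scales that start at 0), coloured by keratin class. At puberty 43 of 119 cells held thinned reads of both, and the cell with the most Nrg1, at 12356 CPM, had no Areg read.

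Of the 85 pubertal cells with Areg, 43 also held Nrg1 after thinning (70.6% of the cells without Areg did). Nrg1 was set beside reads of Trp63, the gene of the basal factor p63. The 25 pubertal cells with a Trp63 read stood at 1566 CPM of Nrg1 (1546 to 1586), with a median of 1301, and 23 of them held Nrg1. The 94 without it stood at 393 CPM (388 to 399), with a median of 5.29, and 44 held Nrg1. In the adult the 9 cells with Trp63 were at 496 CPM and the 35 without at 115, but 1 cell carried 99.3% of the former and another 89.2% of the latter, and 4.35 and 12.8 CPM remained without them.

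Areg was likewise set beside the hormone receptors within the pubertal Krt8/18 class. Cells with a read of Esr1, the oestrogen receptor, stood at 1231 CPM (35 cells, median 1218) and those without at 649 CPM (45 cells, median 236). With Pgr, the progesterone receptor, the level was 1372 CPM (27 cells, median 1075), and without it 657 CPM (53 cells, median 269). All 67 cells with an Areg read held Prlr, the prolactin receptor, which 77 of the 80 cells did. In the adult class, levels were 688 CPM with Esr1 (7 cells) and 1022 without (15 cells), and 1333 CPM with Pgr (12 cells) and 525 without (10 cells). The adult order for Esr1 was thus opposite, with 1 cell giving 74.9% of the reads with Esr1. Without the top cell of each, the adult levels were 189 CPM with Esr1 and 592 without, and 753 CPM with Pgr and 228 without. Whether these splits differ beyond the spread between mice cannot be tested.

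At puberty the other EGFR ligands stood lower in the Krt14 class than in the Krt8/18 class. Hbegf was at 142 CPM in that class (43 of 80 cells) and at 0.245 CPM in the Krt14 class, from 1 read, a log2 ratio of -4.80. Btc was at 70.9 CPM (33 of 80 cells) and 0.245 CPM, a ratio of -3.85, and Tgfa at 19.5 and 0.245 CPM, a ratio of -2.22. Ereg was at 16.2 CPM in the Krt8/18 class, where 1 cell held 75.8% of the reads. In the cells positive for both keratins Hbegf stood at 80.1 CPM, Tgfa at 19.3, Btc at 81.6 and Ereg at 5.28 CPM. In that class 1 cell held 94.7% of the Btc reads and another 68.6% of the Hbegf reads, and 4.68 and 26.7 CPM remained without them. In the Krt8/18 class Tgfa was at 10.2 CPM without its top cell. Tgfa was read in 8 of the 24 cells positive for both, against 9 of the 80. With those 24 cells put in the Krt14 class, the log2 ratio was -0.17 for Btc and -0.31 for Tgfa. That of Tgfa was -0.68 at a keratin threshold of 100 RPKM, and that of Ereg was -0.85 without the top cells. Only Hbegf among these ligands stayed past 2-fold under every alternative.

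Among the receptors at puberty, Erbb3 was read in 13 cells of the Krt8/18 class (25.8 CPM, 24.3 to 27.3), in 3 of those positive for both, and in no cell of the other classes. The Krt14 class had 5 cells, and 0 of 5 allows a share of up to 52.2% by the exact interval. The Erbb3 share in the Krt8/18 class was 16.25%, and no fold was drawn. With cells positive for both put in the Krt14 class, the log2 ratio of Erbb3 was -0.73. Erbb2 was at 122 CPM in the Krt8/18 class (30 of 80 cells, 76.9 CPM without the top cell) and at 129 CPM in the Krt14 class, where 1 of 5 cells held every read, a log2 ratio of 0.08. Egfr had another pattern. It stood at 441 CPM (425 to 458) in the 10 pubertal cells with neither keratin, of which 5 held a read (227 CPM without the cell with 54.4% of the reads), and at 21.6 CPM in the Krt8/18 class (6 of 80 cells), 16.4 in cells positive for both (1 of 24) and 7.58 in the Krt14 class (1 of 5). Of the 9 pubertal cells with reads of at least 5 of 10 fibroblast markers 5 held Egfr, at 189 CPM, and of the other 110 cells 8 did, at 47.7 CPM. The summed level of that list ran from 0 to 37617 CPM over pubertal cells, and its part in the Egfr reads was not tested.

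In all, 1 of the 9 members at 10 CPM was higher in the pubertal Krt14 class (Nrg1, where 21.1% of 8662 genes were) and 7 were lower (51.7% of genes were lower). Egfr was among the latter at -1.08, but stood at 3.53 with a keratin threshold of 10 RPKM and at 1.52 with 100 RPKM. The median log2 ratio was -2.22 for the 9 members and -1.16 for all genes tested, so that most genes were lower in the sum of these 5 cells.

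In the adult, Areg kept its place in the Krt8/18 class. It stood at 903 CPM there (13 of 22 cells), 201 in cells positive for both (7 of 14) and 0.489 in the Krt14 class, where 1 read was found, a log2 ratio of -7.37. Nrg1 stood at 3080, 32.8, 6.13, 0 and 0 CPM in the 5 cells of the Krt14 class and at a median of 0 in the Krt8/18 class, with summed levels of 764 and 3.88 CPM. The log2 ratio of 6.44 was 0.86 without the top cells. Egfr stood at 1627, 35.8, 10.0, 0 and 0 CPM in the Krt14 class. It was not read in any of the 22 cells of the Krt8/18 class, and its ratio of 6.33 was 1.48 without the top cell. Hbegf was in 2 of the 5 cells, at 3639 and 607 CPM, and Tgfa in 2, at 803 and 77.6 CPM. Their log2 ratios were 2.06 and 4.10. That of Hbegf was 0.58 with cells of at least 200000 reads and 2000 genes, and that of Tgfa was -1.11 at a keratin threshold of 10 RPKM. At that threshold the ratio of Nrg1 was -0.48. Of the 5 members at 10 CPM, Egfr, Nrg1, Hbegf and Tgfa were thus higher in the Krt14 class (24.1% of 7415 genes) and Areg lower (58.4%).

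**Figure D5:**
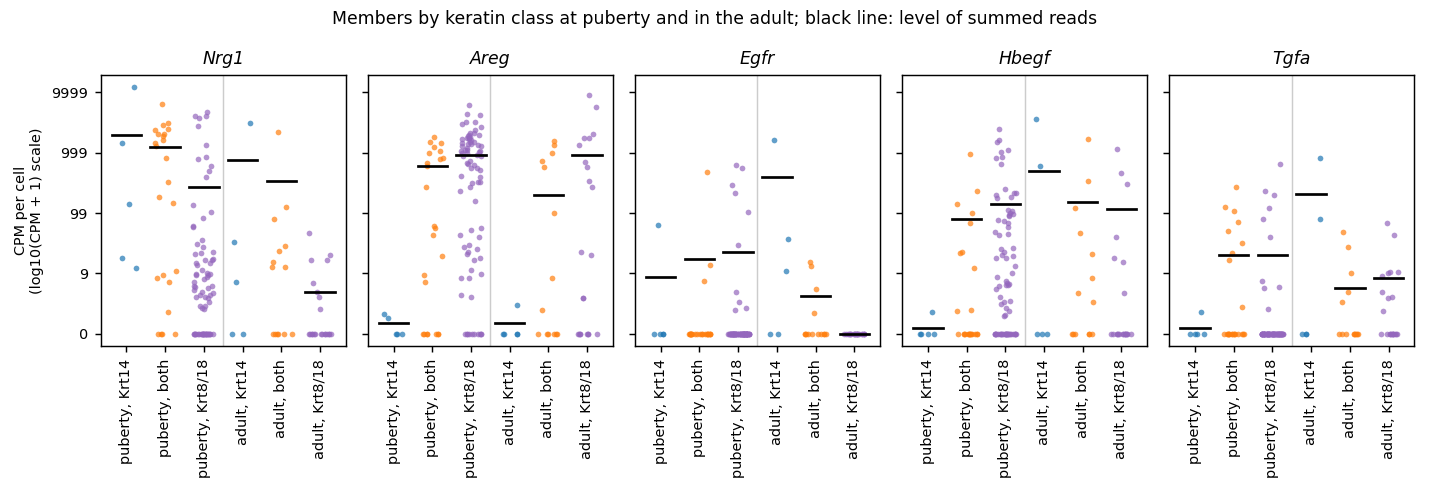
Nrg1, Areg, Egfr, Hbegf and Tgfa in each cell of the keratin classes at puberty and in the adult (CPM on a log scale that starts at 0), with the level of summed reads as a black line. The adult Krt14 lines of Nrg1 and Egfr, at 764 and 396 CPM, lie far above all but 1 of the 5 cells.

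Pre-pubertal cells were mostly without these keratins. Egfr was read in 5 of the 10 cells of their Krt14 class, at 80.2 CPM (72.2 to 88.9, and 52.8 without the top cell), and in 6 of the 97 cells with neither keratin, at 3.49 CPM (2.89 to 4.18). Erbb3 showed the reverse, with 1 read in the Krt14 class and 20.7 CPM in the cells with neither keratin (19.2 to 22.3, 28 of 97 cells). No thinned pre-pubertal cell held both Egfr and Erbb3. The 2 genes also differed between the first 37 pre-pubertal cells, of which 12 were kept, and the later 104. Egfr was at 22.1 CPM in the former (4 cells) and 9.77 CPM in the latter (8 cells). Erbb3 was at 2.00 CPM (1 cell) and 23.0 CPM (29 cells). Cells 8, 12, 27 and 30 of the Krt14 class were among the former, so the split by keratin overlaps with that by cell number. Nrg1 was read in 4 of the 7 cells positive for both keratins, at 366 CPM (204 without the top cell), and in 6 of the 97 with neither, where 96.8% of its reads came from 1 cell. Hbegf did not follow the keratins, with 432 CPM in the Krt14 class (7 of 10 cells), 204 in cells positive for both (4 of 7, and 135 CPM without the top cell) and 263 in cells with neither (70 of 97).

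The cells with a given ligand were then compared with those holding its receptor. At puberty 116 of 119 cells held a read of at least 1 of the 6 ligands (97.5%), with a median of 2 ligands, while 63 cells held none of the 4 receptors. Egfr was in 5 of the 85 cells with Areg (5.88%) and in 8 of the 34 without (23.5%). Erbb3 was in 8 of the 67 cells with Nrg1. Erbb2 and Erbb3, which form the neuregulin receptor pair, were read together in 8 pubertal cells, of 37 and 16 with each. At pre-puberty they were together in 9 cells, of 24 and 30, and in the adult in none, of 7 and 1. Pre-pubertal Hbegf, in 83 cells, met Egfr in 6 of them. At these depths a receptor with few transcripts is easily missed, so an absent read does not show that a cell lacked the receptor.

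The genes whose levels were most like those of a member were sought over the 119 pubertal cells, among 4808 genes read in at least 20% of them. The cells share stage and captures and differ in depth, so the rank correlations are descriptions. Areg was closest to Il33 (rho = 0.67), a cytokine, Stc2 (0.65), a secreted glycoprotein, and Krt19 (0.62), a luminal keratin. Nrg1 was closest to Col11a1 (0.64) and Col18a1 (0.62), both collagens, and Il17b (0.58), a cytokine. Btc was closest to Casp8ap2 (0.49), Cdh1 (0.45), the epithelial cadherin, and Lgals3 (0.42). Erbb2 had Ncor1 alone (0.41), and Hbegf had no gene at 0.4 or above.

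Other genes of the pathway were taken from lists by role. Of 5 other ligands, Epgn alone reached 10 CPM in pre-puberty against puberty, at a log2 ratio of -4.58. It was not read in the pubertal Krt14 class and stood at 141 CPM in the Krt8/18 class, or 68.3 CPM without its top cell. Nrg4 was at 0.0983, 5.61 and 10.6 CPM over the stages, and Egf, Nrg2 and Nrg3 stayed under 2 CPM. Among 4 shedding genes, Adam17, the protease that frees most EGFR ligands, was higher at pre-puberty than at puberty (199 against 55.3 CPM, log2 ratio 1.76). Rhbdf2, which helps to mature Adam17, was lower (12.1 against 34.7 CPM, -1.22, or 8.07 against 20.9 CPM without the top cells). Of all genes, 21.4% were higher and 24% lower in that comparison. All 4 shedding genes were lower in the pubertal Krt14 class than in the Krt8/18 class, with Adam10 at -5.32 and Adam17 at -3.61, in a contrast where 51.7% of all genes were lower.

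Of 7 adaptors and effectors, 6 reached 10 CPM in pre-puberty against puberty. Only Grb7, an adaptor of ErbB2, was past 2-fold, with 0 reads at pre-puberty against 20.7 CPM, 68.1% of it in 1 cell (24% of all genes were lower). Grb2, Shc1 and Pik3r1 were lower at puberty than in the adult (20.6% of all genes were). Pik3r1, the regulatory subunit of PI3-kinase, was at 108 and 485 CPM. Among 6 genes that restrain the receptors, 4 reached 10 CPM in pre-puberty against puberty. Lrig1 was higher at pre-puberty (61.7 against 6.77 CPM, or 29.6 against 4.19 without the top cells). So was Cblb (23.0 against 4.48 CPM), in a contrast where 21.4% of all genes were higher. Errfi1, a feedback inhibitor of EGFR, stood at 261, 500 and 857 CPM over the stages (115 CPM at the first without its top cell) and was read in 26.7%, 73.9% and 81.8% of cells.

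Of 10 genes known to follow ERK signalling, 7 reached 10 CPM in pre-puberty against puberty. Of these, Spry2, Spry4 and Phlda1 were higher at pre-puberty (21.4% of all genes were) and Dusp4 and Etv5 lower (24% of all genes were). Spry2, a feedback inhibitor of receptor tyrosine kinases, stood at 2070, 341 and 137 CPM in order of age, being read in 99.1%, 86.6% and 84.1% of cells. Dusp6, the ERK phosphatase, was at 440, 248 and 345 CPM. In the pubertal Krt14 class 6 of the 8 genes at 10 CPM were higher than in the Krt8/18 class (21.1% of all genes were), among them Dusp6 (log2 ratio 2.04), Spry2 (1.80) and Fosl1 (2.17), and Spred1 was lower (-2.99). The median of these 8 was 1.404 there, while the median of all genes tested was -1.16. In the adult Krt14 class 3 of the 7 genes at 10 CPM were higher (24.1% of all genes were) and 3 were lower (58.4%). Their median was -0.97 in the adult, against -1.72 for all genes tested. Each of the 2 Krt14 classes held 5 cells, so neither contrast of these ERK genes can stand for a class at large. These genes also respond to other receptors, such as those for fibroblast growth factors.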

How the data were processed

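Full-length cDNA of single C1-captured cells was sequenced as paired reads. Per the labels and methods, the authors aligned them to mm10 with Subread (version 1.4.6 in the submitters' processing notes) and deposited raw read-pair counts per Entrez gene from featureCounts, with gene lengths in bases; there were no UMIs and no strand. Symbols were matched by GeneID. The 1904 unmatched, 15 mitochondrial and 118 ribosomal protein genes were left out, as were cells under 100000 reads or 1500 genes. Counts were summed per stage or class as CPM with exact Poisson intervals, and shares of thinned cells were given exact Clopper-Pearson intervals (scipy 1.17.1), at 95%. With 1 sample per stage no test was run. Log2 ratios were taken after adding 5 CPM. TMM factors came from edgeR 4.0.16 as an alternative. Sums and thinning were checked on simulated data with larger groups than the Krt14 classes, which that check does not cover. The members, lists and named genes (members, class markers, list genes past 2-fold, and the 3 genes most like a member with rho of at least 0.4) were chosen with earlier results of these data known.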

Additional observations from a re-analysis of the deposited data

Results flagged for a closer look

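For 3 members the contrast of the Krt14 class over the Krt8/18 class was past 2-fold in opposite directions at puberty and in the adult. The log2 ratio of Egfr was -1.08 at puberty and 6.33 in the adult, that of Hbegf -4.80 and 2.06, and that of Tgfa -2.22 and 4.10. The difference between the stages was not tested, since each stage is 1 sample. None of the 3 kept the opposite calls under every alternative. Egfr at puberty was 3.53 at a keratin threshold of 10 RPKM and 1.52 at 100 RPKM, Tgfa in the adult was -1.11 at 10 RPKM, and Hbegf in the adult was 0.58 under the stricter coverage filter. In the adult Krt14 class 1 of 5 cells held 98.3% of the Egfr reads and 93.8% of the Tgfa reads, the same cell for both, and another held 71.0% of the Hbegf reads.

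Cells under the coverage filter entered no comparison, yet held reads of the members above the limit that a count of 0 allows. Summed over the 10 members the level was 190 CPM in 28 pre-pubertal cells (154.5 to 230.5), 1265 CPM in 17 pubertal cells (1186 to 1348) and 1188 CPM in 22 adult cells (1088 to 1295). Areg gave most of the reads at the later stages, with 969 and 869 CPM, and Hbegf most at pre-puberty, with 95.8 CPM.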

How the results depend on the processing

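No paired analysis was possible because the replicate numbers only name cells and each stage is 1 sample without a test. Over 16 alternative settings, 66 of 72 recomputed counts of members stayed within 1.5 times of the reported one. Of 31 ratios past 2-fold, 15 stayed so under every setting that applied. The count for the pubertal classes, 8, was 4 when cells positive for both keratins joined the Krt14 class. For the adult classes, 5 became 3 without the cell with most reads of the gene in each group, 3 at a keratin threshold of 10 RPKM and 9 with no minimum level. With 5 reads asked for after thinning, 1 member in place of 2 was in at least 50% of pubertal cells, and 0 in place of 1 in the adult.

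Signs changed in 8 recomputed ratios. Of the settings, 3 were chosen after seeing the data: leaving out cells with many fibroblast markers, leaving out later cells with many Schwann markers, and using only the 19 pre-pubertal cells above the keratin threshold. Under the last, Egfr was 0.01 over puberty and 0.38 over the adult, and Erbb3 was -0.31 over the adult. Egfr over the adult was 1.01 without the top cells, where 1 adult cell sets its level. Between the pubertal classes Egfr was 3.53 at a threshold of 10 RPKM and 1.52 at 100 RPKM. Between the adult classes at 10 RPKM, Nrg1 was -0.48 and Tgfa -1.11. The cause of the keratin threshold changes was not tested. The 4 receptors and Tgfa, Btc and Ereg had a median per cell of 0 CPM at every stage. How far depth limits them was not tested.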
